A study of Cricetulus griseus with 4 samples.

Results

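In CHO-K1, an established line from Chinese hamster ovary, 786 of 12182 measured genes stood, with 25-hydroxyvitamin D3, at least 2-fold away from the level given by adding up 2 selective compounds, an SREBP inhibitor and an activator of VDR. Of these genes, 258 (2.12% of those measured) were above the summed level and 528 (4.33%) were below it. They were found from 3 differences from DMSO, each on the log2(CPM + 1) scale, where CPM is the count of a gene per 1000000 counts of the effective library size. The residual of a gene is its 25-hydroxyvitamin D3 difference minus the sum of its SREBP inhibitor and VDR activator differences. A gene was taken when its residual was at least 1 or at most -1, and it was measured when at least 10 counts fell on it in any library. Because these values chose the genes, the residuals and the levels behind them are given as a description and carry no test.

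25-hydroxyvitamin D3 is the main circulating form of vitamin D. It can bind the vitamin D receptor (VDR), a nuclear receptor that switches on genes such as its own feedback enzyme Cyp24a1. It also lowers the activity of SREBPs, membrane-bound transcription factors that turn on the enzymes making cholesterol and fatty acids when sterols are short. Compounds selective for either activity allow the response to 25-hydroxyvitamin D3 to be set against both.

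The 4 groups were cells given 25-hydroxyvitamin D3, a selective SREBP inhibitor, a selective VDR activator, or DMSO, the vehicle, with 1 library each. All cells, DMSO included, were plated for 24 hr and then treated for 24 hr in medium with 5% lipid-depleted serum, 50 µM compactin (a statin, which blocks the mevalonate pathway) and 50 µM mevalonate. Neither the doses nor the structures of the compounds are in the labels, so the sum sets unmatched doses side by side. With 1 library per group there is no replicate check and no test, and every value compares libraries, not conditions.

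Library totals lay between 21336398 and 23654115 counts, so that 1 CPM stood for 20.4 to 24.4 counts. Intervals in brackets are 95% intervals of the residual made from exact Poisson limits of the 4 counts, and they cover counting error only. CHO-K1 has no single defining marker. The intermediate filament gene Vim was at 788, 1430, 898 and 1481 CPM with 25-hydroxyvitamin D3, the SREBP inhibitor, the VDR activator and DMSO, while the epithelial keratin Krt18 had no counts in any library. In bulk RNA, fewer cells with a transcript and less of it per cell cannot be told apart, and levels here are shares of each library's RNA.

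25-hydroxyvitamin D3 had the widest response of the 3 compounds. It placed 10.9% of measured genes at least 2-fold higher than DMSO and 11.5% at least 2-fold lower. The SREBP inhibitor placed 1.83% higher and 1.31% lower, and the VDR activator 0.172% and 0.304%. All 3 comparisons share the DMSO library, so an error in it enters each of them. Among the 258 genes above the sum, 184 were at least 2-fold higher than DMSO with 25-hydroxyvitamin D3, 36 with the SREBP inhibitor and 2 with the VDR activator, the transcription factor gene Junb and the chemokine gene Cxcl1. Among the 528 below it, 448 were at least 2-fold lower with 25-hydroxyvitamin D3, 54 with the SREBP inhibitor and 9 with the VDR activator.

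The library of 25-hydroxyvitamin D3 held the highest level of the 4 for 249 of the 258 genes above the sum and the lowest for 520 of the 528 below, a description that the rule favours. Over all measured genes it was the highest for 41.9% and the lowest for 42.2%. Median differences from DMSO among the genes above were 1.48 with 25-hydroxyvitamin D3, 0.25 with the SREBP inhibitor and -0.09 with the VDR activator. Among the genes below they were -1.74, -0.34 and -0.06 for the same compounds. Median residuals were 1.20 above and -1.25 below, against -0.01 over all measured genes. The interval lay on 1 side of 0 for all 786 genes, and wholly past the limit for 125 above and 219 below. It also lay on 1 side of 0 for 63.2% of all measured genes. The same counts chose the 786 genes, so their intervals add no support.

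**Figure D1:**
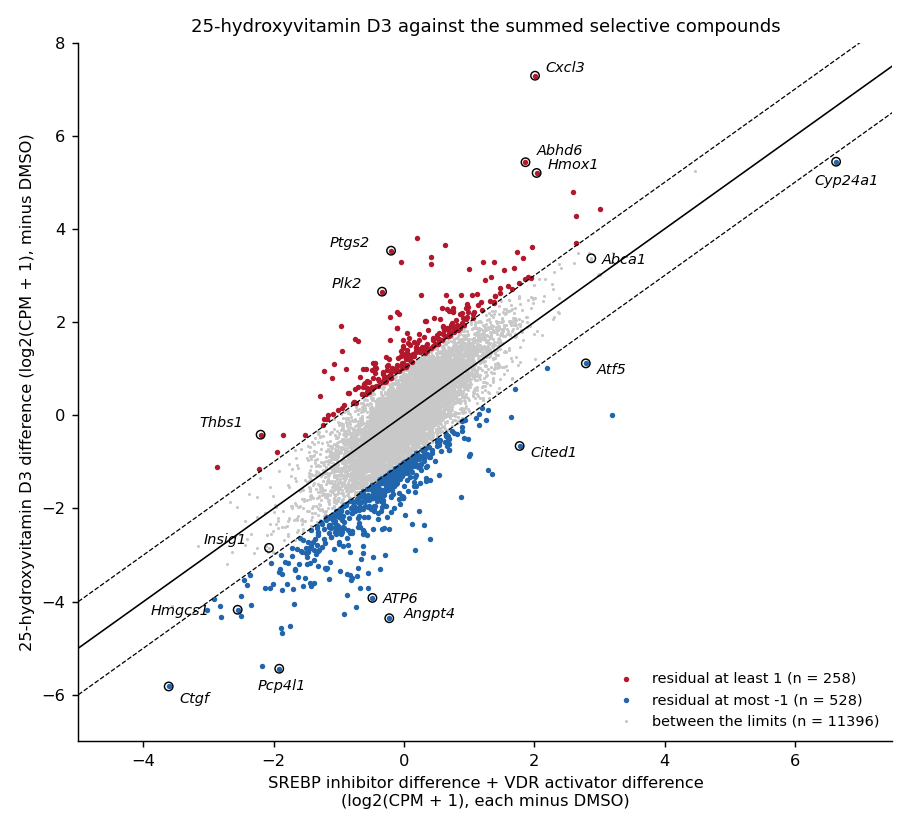
Each point is a measured gene, with its 25-hydroxyvitamin D3 difference from DMSO against the sum of the SREBP inhibitor and VDR activator differences, all in log2(CPM + 1). The solid line is equality and the dashed lines are residuals of 1 and -1. The 258 genes above and 528 below lie outside the dashed lines, with Cxcl3 the farthest above and Angpt4 the farthest below.

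Most residuals were close to the limit, and 23 genes above and 54 below were at least 4-fold away. Just inside it stood Diexf at 1.002 and Chst11 at 1.001, and just outside it Slc1a4 and Grb14 at 0.989. On the lower side Chek2 and Rnf170 were inside at -1.002, and F2r and Igdcc4 outside at -0.999. The split also depended on the scale. With the authors' FPKM values 123 genes were above and 490 below, and with a pseudocount of 5 CPM in place of 1 the numbers were 164 and 200.

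The genes were of 4 kinds by what the selective compounds did. In the first, 25-hydroxyvitamin D3 differed at least 2-fold from DMSO while the summed selective differences stayed within 0.5 of 0, which held for 88 genes above and 215 below. In the second, the sum went the same way by more than 0.5 but fell short of 25-hydroxyvitamin D3, for 91 above and 229 below. In the third, it went the opposite way, for 5 above and 4 below. In the last, 25-hydroxyvitamin D3 itself was under 2-fold in that direction, for 74 above and 80 below. Median differences in this kind were 0.62 with 25-hydroxyvitamin D3 and -0.57 for the sum among the genes above, and -0.66 and 0.54 among those below.

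Among genes above the sum, inflammatory signal genes stood at the far end. Cxcl3, a chemokine that draws neutrophils, was at 271 CPM with 25-hydroxyvitamin D3, 4.18 with the SREBP inhibitor, 1.35 with the VDR activator and 0.737 in DMSO. The SREBP inhibitor library was 5.67-fold above DMSO (3.32 to 10.3), far less than 25-hydroxyvitamin D3, and the residual of 5.28 (4.80 to 5.78) was the largest of all measured genes. Its estimated counts, like those of Lif, Nr1d1, Tbc1d2 and Hmgcs1, were not all whole, and whether reads were shared with other genes is not known. Ptgs2, which encodes the inducible prostaglandin synthase COX-2, was at 124, 12.8, 6.38 and 9.81 CPM in the same order. The VDR activator library was the lowest for Ptgs2, the summed difference was -0.20 and the residual 3.73 (3.42 to 4.05). Pla2g4a, the phospholipase that frees arachidonic acid for COX-2, lies next to Ptgs2 in the RefSeq gene order and had a residual of 1.23.

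Lif, a cytokine of the interleukin-6 family, went against both selective compounds. It was at 146 CPM with 25-hydroxyvitamin D3, 32.8 with the SREBP inhibitor, 22.3 with the VDR activator and 38.2 in DMSO, so each selective library was under DMSO while 25-hydroxyvitamin D3 was above it. Its residual was 2.87 (2.68 to 3.06). Of 20 measured chemokine, cytokine and interferon genes, 6 were above the sum and 1 below, with a median residual of 0.71. The other members above were Cxcl1 at 1.41, the adhesion gene Icam1 at 1.16 and Ccl2 at 1.75. Ccl2, a monocyte chemokine, was at 7.95, 8.62, 4.38 and 18.5 CPM with 25-hydroxyvitamin D3, the SREBP inhibitor, the VDR activator and DMSO. It was thus lower than DMSO with all 3 compounds, and its residual says only that 2 low selective libraries sum to a lower level than the one observed. Against the larger selective difference alone it was 0.74.

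Cxcl12, the member below, had no counts with 25-hydroxyvitamin D3, which allows up to 0.147 CPM, and 1.64, 3.56 and 4.15 CPM with the SREBP inhibitor, the VDR activator and DMSO. Another 3 genes below the sum had no counts there. They were the metallothionein gene Mt1, Ydjc and LOC103160377, named after their values were seen. LOC103160377 had no counts in DMSO either, so its residual came from the selective libraries alone. Ydjc was under 1 CPM in DMSO, and Mt1 was low there too.

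Hmox1, the heme oxygenase that degrades heme under oxidative stress, was at 1844 CPM with 25-hydroxyvitamin D3, 156 with the SREBP inhibitor, 64.7 with the VDR activator and 49.1 in DMSO. Each selective compound was above DMSO, the SREBP inhibitor more so, and their sum gives 205 CPM. The residual was 3.17 (3.04 to 3.29). Hmox1 is a target of NRF2, the transcription factor of the oxidative stress response, but the 22 measured NRF2 targets were divided, with 3 above, 1 below and a median of 0.03. The thioredoxin reductase gene Txnrd1 (residual 1.15) and the cystine transporter gene Slc7a11 (1.58) were above. Nqo1, the quinone reductase often read as the standard NRF2 target, was below at -1.70, with 14.8, 46.1, 90.1 and 82.8 CPM in the order used above.

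Abhd6, which hydrolyses monoacylglycerols, was at 108, 12.02, 0.777 and 1.52 CPM with 25-hydroxyvitamin D3, the SREBP inhibitor, the VDR activator and DMSO, a residual of 3.57 (3.10 to 4.02). Here the SREBP inhibitor library was also clearly above DMSO, yet the sum gives 8.18 CPM. Among 28 measured genes of lipid droplets and fatty acid oxidation, 3 were above and 1 below, and the median was -0.18. The others above were Hilpda, an inhibitor of triglyceride lipolysis, at 1.91 and Dgat2, the last enzyme of triglyceride synthesis, at 1.55. The droplet coat gene Plin4 was below, at 19.9, 136, 144 and 177 CPM in the same order and a residual of -2.42.

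The rest of the upper end came from several functions. Nppb, the brain natriuretic peptide gene, was at 16.1 CPM with 25-hydroxyvitamin D3 and at 0.603, 0.0818 and 0.23 CPM with the SREBP inhibitor, the VDR activator and DMSO, levels that rest on few counts. Plk2, a stress-responsive polo-like kinase gene and p53 target, was at 329, 71.1, 29.1 and 51.4 CPM in that order, with a residual of 2.99. Nr1d1, which encodes the circadian repressor REV-ERB alpha, was at 143, 17.2, 12.6 and 12.7 CPM, with a residual of 2.98. In all 3 only the 25-hydroxyvitamin D3 library stood well apart. Ccbe1, a secreted protein gene needed for lymphatic vessels, followed at 3.02, and then the Rab GTPase-activating protein gene Tbc1d2 at 2.83, Phlda1 at 2.38 and Tspoap1 at 2.33.

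**Figure D2:**
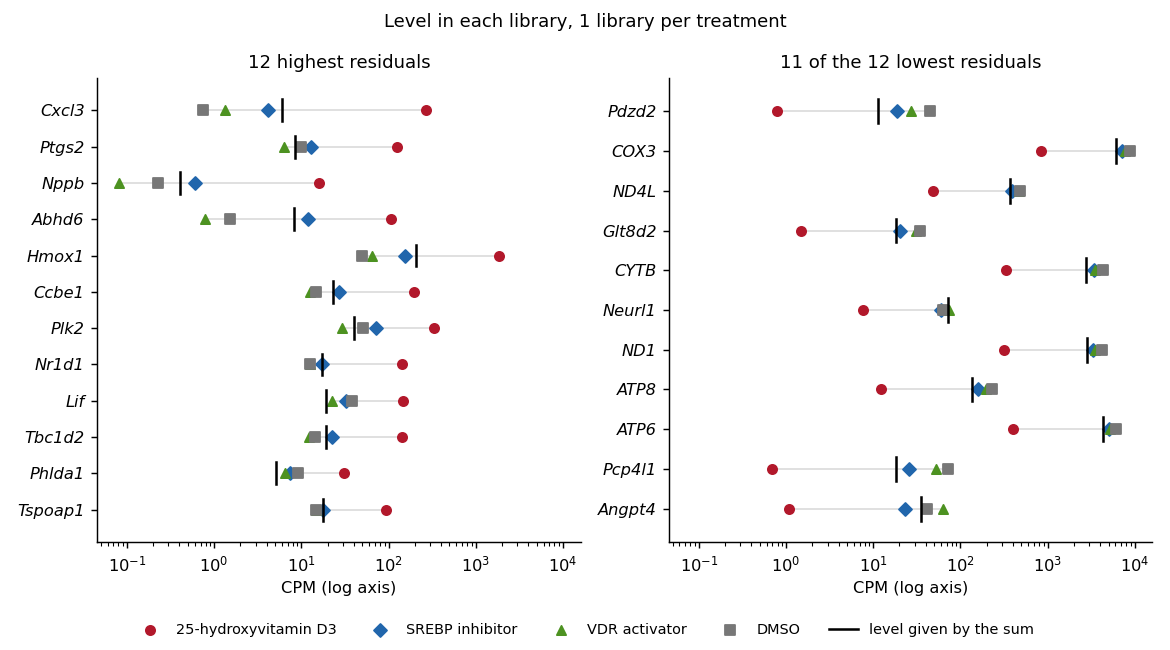
CPM on a log axis of the 12 genes with the highest residuals and of 11 of the 12 with the lowest, among genes with a symbol that reached 10 CPM in a library. Points are the single libraries of 25-hydroxyvitamin D3, the SREBP inhibitor, the VDR activator and DMSO, and the black stroke is the level given by the sum. Cxcl3 stands at 271 CPM against 6.01 given by the sum, and Angpt4 at 1.08 against 35.5.

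At the lower end stood all 13 mRNAs encoded by the mitochondrial genome, which carries core subunits of the respiratory chain and of ATP synthase. They made up 0.753% of counts with 25-hydroxyvitamin D3 (95% Clopper-Pearson interval 0.750 to 0.757), against 5.25% with the SREBP inhibitor, 5.93% with the VDR activator and 6.81% in DMSO. The median residual of the 13 was -2.74, between -3.44 for ATP6 and -1.90 for COX1. In all 13 the 25-hydroxyvitamin D3 library was the lowest, and neither selective compound passed 2-fold in any. The median 25-hydroxyvitamin D3 difference was -3.43 and the median sum -0.61.

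ATP6, a subunit of ATP synthase, was at 402 CPM with 25-hydroxyvitamin D3, 5106 with the SREBP inhibitor, 5212 with the VDR activator and 6103 in DMSO, a residual of -3.44 (-3.47 to -3.40). COX1, the catalytic subunit of cytochrome oxidase, was at 3381, 14367, 16934 and 19303 CPM in that order. Both selective libraries stood a little under DMSO for either gene. ND6 is encoded on the opposite strand to the rest of the mRNAs and had a residual of -2.70, but whether counting used strand is not given in the sources used here. ATP8 overlaps ATP6, and ND4L overlaps ND4, so reads of these pairs may be shared.

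The nuclear genome encodes the other respiratory chain subunits. None of the 34 that were listed and measured was past a limit, with a median residual of -0.12. Of 29 measured genes of mitochondrial transcription and RNA handling, again none was past a limit. Their median was 0.33, of the opposite sign. For both nuclear lists the median 25-hydroxyvitamin D3 difference was above 0, at 0.34 and 0.93. The count of genes past the limits was 265 above and 527 below when mitochondrial genes were left out of the library sizes.

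**Figure D3:**
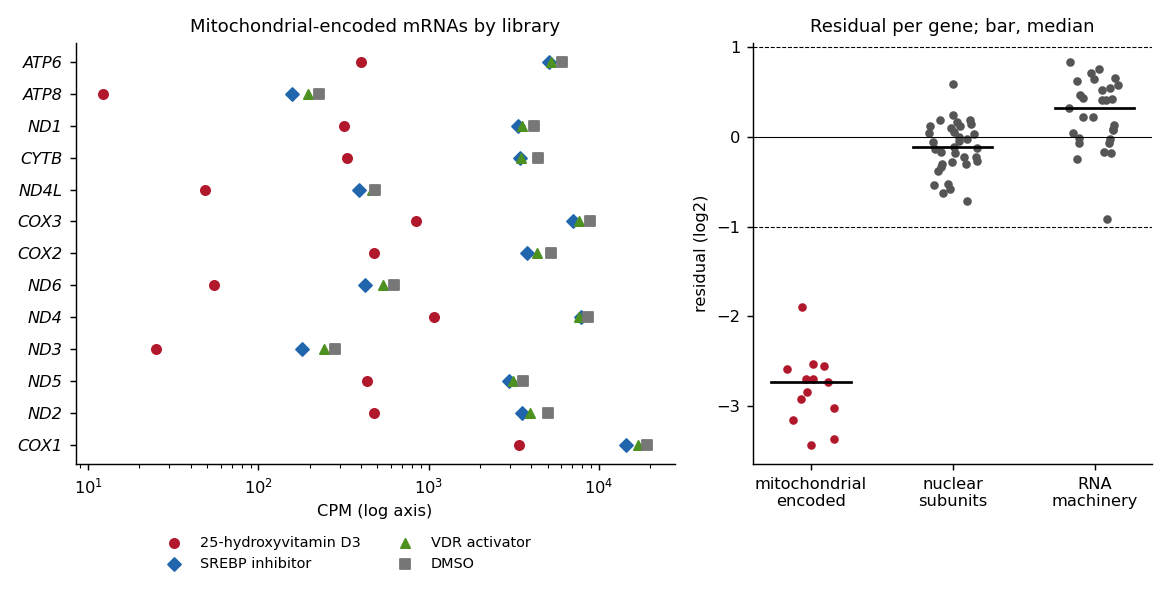
Left, CPM on a log axis of the 13 mitochondrial-encoded mRNAs in the libraries of 25-hydroxyvitamin D3, the SREBP inhibitor, the VDR activator and DMSO. Right, the residual of each of these mRNAs, of 34 nuclear-encoded respiratory chain subunits and of 29 genes of mitochondrial transcription and RNA machinery, with the median as a bar and dashed lines at 1 and -1. The 13 lie between -3.44 and -1.90, and no gene of the nuclear lists is past a limit.

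Among nuclear genes the lowest residual was that of Angpt4, a secreted ligand of the TIE2 receptor. It was at 1.08 CPM with 25-hydroxyvitamin D3, 23.2 with the SREBP inhibitor, 63.2 with the VDR activator and 41.6 in DMSO. The selective compounds lay on either side of DMSO and their sum was close to 0, while 25-hydroxyvitamin D3 was far below all 3 libraries, with a residual of -4.13 (-4.48 to -3.75). Pcp4l1, a gene related to the calmodulin regulator Pcp4, was at 0.687, 25.8, 52.1 and 72.4 CPM in that order, and its residual was -3.53 (-3.86 to -3.14). Neurl1, a ubiquitin ligase gene, was at 7.61, 60.5, 74.7 and 63.4 CPM, and its selective libraries lay close to DMSO.

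Hmgcs1, the HMG-CoA synthase of cholesterol synthesis and a classical SREBP target, was below the sum as well. It was at 118, 404, 1941 and 2147 CPM with 25-hydroxyvitamin D3, the SREBP inhibitor, the VDR activator and DMSO, so that the SREBP inhibitor library was also well under DMSO, and its residual was -1.62 (-1.69 to -1.56).

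Of 21 measured cholesterol synthesis enzymes, Hmgcs1 included, 7 were below the sum and 0 above. The other 14 were inside the limits, 2 of them with a positive residual, and the median was -0.72. With 25-hydroxyvitamin D3 20 of the 21 were at least 2-fold under DMSO, and with the SREBP inhibitor 19. Among the others below were Acat2 at -1.61, the isopentenyl diphosphate isomerase gene Idi1 at -1.38, and Mvd, Lss and Fdps between -1.08 and -1.04. Summed on the linear CPM scale, where sums below 0 were set to 0, 2 of the 21 enzymes were above and 4 below, and Hmgcs1 came inside the limits at -0.74. Acat2 has a near copy among the measured genes, so its reads may be split. Insig1, the sterol sensor partner that retains SREBP, stayed inside the limits at -0.77. Among 18 measured uptake and feedback genes 2 were below, the lipid phosphatase gene Lpin1 at -1.14 and the sterol transfer gene Gramd1b at -1.68. Of 19 fatty acid and NADPH synthesis genes, Acss2 at -1.04 and Acacb at -1.12 were below. Acacb was at 11.4, 19.3, 15.2 and 11.1 CPM with 25-hydroxyvitamin D3, the SREBP inhibitor, the VDR activator and DMSO. It was thus close to DMSO with 25-hydroxyvitamin D3, and its residual came from the 2 selective libraries. With FPKM, a pseudocount of 5, the linear sum or the larger selective difference, Acacb came inside the limits.

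Genes listed as targets of VDR were divided, and few of them rose with the VDR activator. Cyp24a1, the vitamin D 24-hydroxylase, was at 185 CPM with 25-hydroxyvitamin D3, 5.99 with the SREBP inhibitor, 258 with the VDR activator and 3.27 in DMSO. It was far above DMSO with 25-hydroxyvitamin D3 but below the sum, with a residual of -1.19 (-1.53 to -0.85). This came inside the limits on the linear sum, at -0.49, and against the larger selective difference alone, at -0.48. Cited1, a transcriptional coregulator gene, was at 20.1, 25.2, 144 and 32.3 CPM in that order. It was thus high with the VDR activator alone, and the 25-hydroxyvitamin D3 library was the lowest, with a residual of -2.44 (-2.65 to -2.23). Sulf2, an extracellular sulfatase gene named after its values were seen, was also highest with the VDR activator, at 75.4, 56.7, 112 and 36.7 CPM. Of 15 measured VDR targets 2 were above and 3 below, with a median of -0.11. With the VDR activator only 2 of the 15 were at least 2-fold above DMSO, and the list's median VDR activator difference was -0.10. The pump gene Abcb1 and the growth factor gene Hbegf were above at 1.14 and 1.44, and the cell cycle inhibitor gene Cdkn1a was below at -1.17. These genes differed little between the VDR activator library and DMSO, at 1.20-fold for Abcb1, 0.888-fold for Hbegf and 1.11-fold for Cdkn1a. Abcb1 has a near copy, Abcb1b, so the counts of either are uncertain.

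Abca1, the cholesterol efflux pump and a target of the oxysterol receptor LXR, was at 645, 600, 46.6 and 61.4 CPM with 25-hydroxyvitamin D3, the SREBP inhibitor, the VDR activator and DMSO. The 2 high libraries were similar, and its residual of 0.49 was inside the limits. Of 10 measured LXR targets, the small GTPase gene Arl4c was above at 1.33 and Rab7b below at -2.15.

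The integrated stress response, in which phosphorylation of eIF2 raises translation of ATF4, gave the most genes above the sum of any list. Of 21 measured, 7 were above and 1 below, with a median of 0.65. Ppp1r15a, whose product directs the dephosphorylation of eIF2, was at 192, 44.8, 18.5 and 18.6 CPM with 25-hydroxyvitamin D3, the SREBP inhibitor, the VDR activator and DMSO, a residual of 2.09 (1.88 to 2.30). Chac1, which degrades glutathione, was at 48.4, 13.3, 3.48 and 3.04 CPM and 1.64. The others above were Slc7a11, Atf3, Nupr1, Slc7a3 and Slc3a2, between 1.05 and 1.58. Slc7a3 was at low levels, at most 2.06 CPM. In most of this list the SREBP inhibitor library was high as well, with 14 of 21 at least 2-fold above DMSO, against 16 with 25-hydroxyvitamin D3.

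Atf5, a transcription factor gene of the same program, went the other way. It was at 46.2 CPM with 25-hydroxyvitamin D3, 135 with the SREBP inhibitor, 23.2 with the VDR activator and 20.8 in DMSO. The SREBP inhibitor alone was thus far above 25-hydroxyvitamin D3, and the residual was -1.68 (-1.88 to -1.48). Its neighbour in the RefSeq order, the amino acid oxidase gene Il4i1, was above the sum at 2.31. Of 20 measured cytosolic aminoacyl-tRNA synthetases, Nars and Yars were above, at 1.12 and 1.04, with a median of 0.53, and with FPKM values none was past a limit. Of 27 ER chaperone and ERAD genes only the stress sensor Atf6 was above, at 1.55, and the list's median was 0.09.

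**Figure D4:**
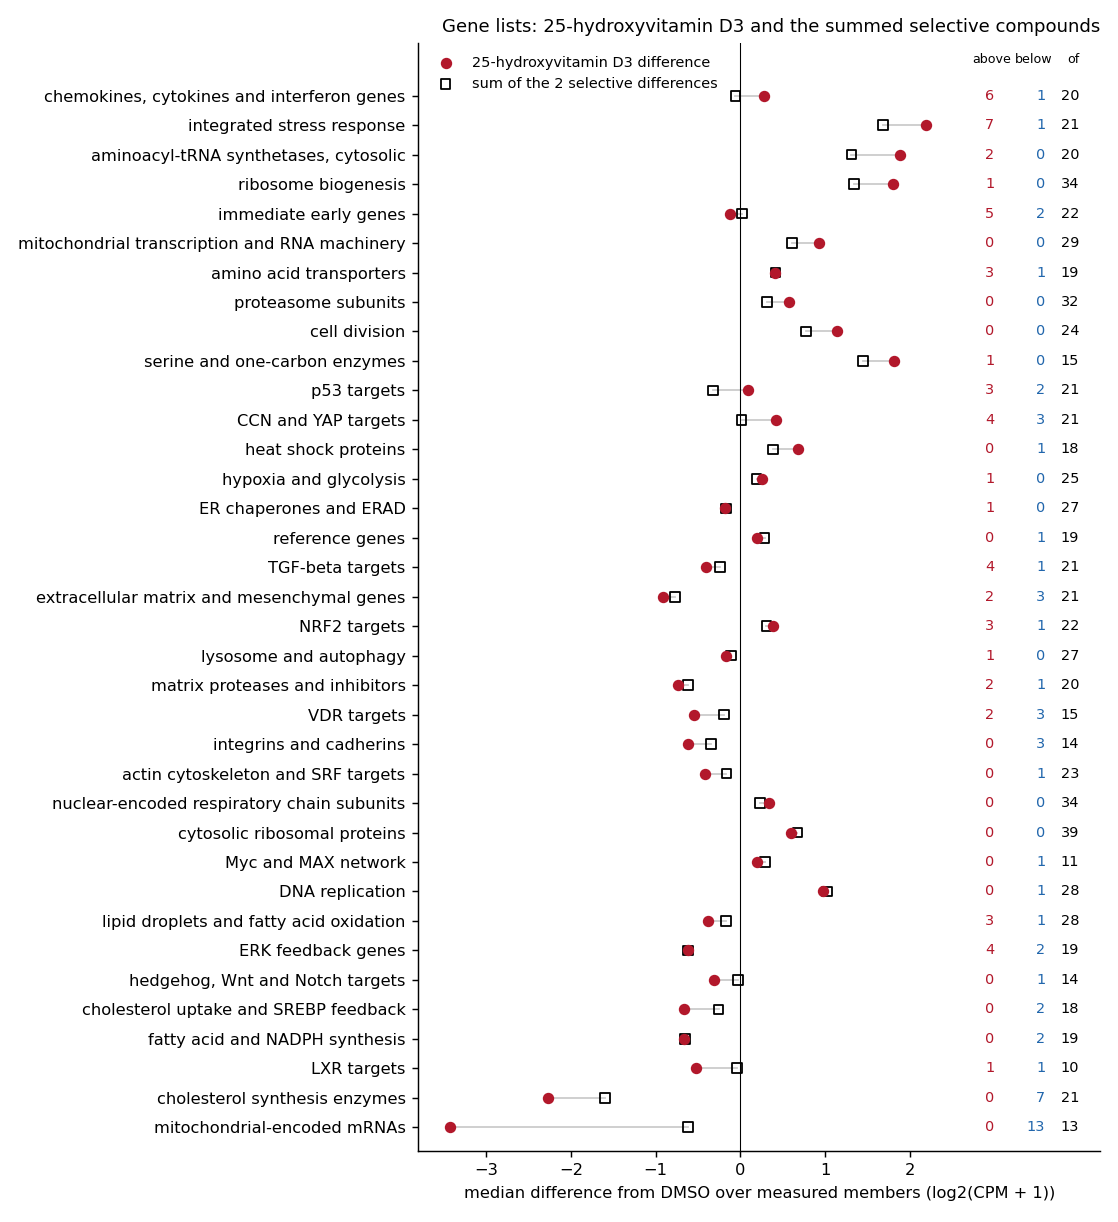
Median difference from DMSO of the measured members of each gene list, in log2(CPM + 1), with 25-hydroxyvitamin D3 as filled circles and the sum of the SREBP inhibitor and VDR activator differences as open squares. Numbers at the right are members above the sum, members below it and members measured. The mitochondrial-encoded mRNAs have the widest gap, at -3.43 for 25-hydroxyvitamin D3 and -0.61 for the sum.

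The doses could not be matched, so the sum was also taken with each selective difference rescaled. The SREBP inhibitor difference was multiplied by 1.41, which brings the median of the cholesterol synthesis enzymes to that of 25-hydroxyvitamin D3, and the VDR activator difference by 0.919, which does the same for Cyp24a1. Then 230 genes were above and 443 below, and they held 178 of the 258 and 383 of the 528. Cholesterol enzymes past a limit came to 1 above and 1 below with a median of -0.11, which the factor sets near 0. Lists that had no part in the factors moved too. The integrated stress response had 2 above and 1 below with a median of -0.04, and the tRNA synthetases 0 above and 1 below.

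NRF2 targets had 1 above and 1 below, amino acid transporters 1 above and 1 below, and CCN and YAP targets 2 above and 3 below. Of the 5 immediate early genes above, Atf3 came to 0.60, Junb to 0.86 and Fosl1 to 0.23, although the list again had 5 above and 2 below. All 13 mitochondrial-encoded mRNAs were below under the same rescaling, with a median of -2.66. Chemokine, cytokine and interferon genes had 7 above and 0 below, with a median of 0.65. The residuals of Cxcl3, Ptgs2 and Lif were 4.66, 3.54 and 2.90, and those of Hmox1 and Abhd6 2.52 and 2.55. Ppp1r15a stayed past the limit at 1.58, while Slc7a11 came to 0.86 and Hmgcs1 to -0.64. Atf5 moved further from 0, to -2.76.

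**Figure D5:**
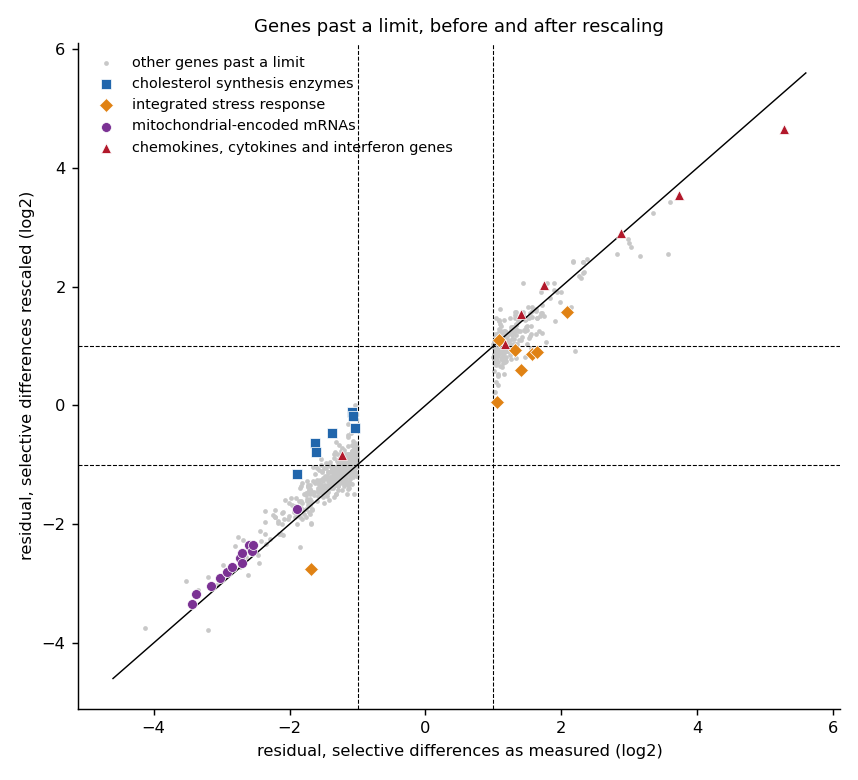
Residual of each of the 786 genes with the selective differences as measured, against the residual with the SREBP inhibitor difference multiplied by 1.41 and the VDR activator difference by 0.919, both in log2. The solid line is equality and dashed lines mark 1 and -1. Mitochondrial-encoded mRNAs stay near the line, while most cholesterol synthesis enzymes and integrated stress response genes lie within the limits after rescaling.

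Early response and matrix genes held members on both sides of the sum. Of 22 measured immediate early genes, which answer growth and stress signals within a short time, 5 were above and 2 below, with a median of 0.39. Zfp36, whose product destabilises inflammatory mRNAs, was above at 1.33, together with Atf3, Maff, Junb and Fosl1. With FPKM values 2 were above and 2 below. Egr1, a zinc finger factor gene downstream of ERK, was at 5.30, 42.6, 46.1 and 62.7 CPM with 25-hydroxyvitamin D3, the SREBP inhibitor, the VDR activator and DMSO, a residual of -2.36 (-2.63 to -2.08). Ier3 was below at -1.86. Of 19 ERK feedback genes 4 were above and 2 below. The phosphatase genes Dusp4 and Dusp7 were above at 1.42 and 1.06, and their relatives Dusp5 and Dusp14 were below at -1.14 and -1.29.

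Members of the CCN family of matricellular proteins lay on both sides. Ctgf was at 0.638 CPM with 25-hydroxyvitamin D3, 32.2 with the SREBP inhibitor, 20.2 with the VDR activator and 91.7 in DMSO. All 3 compounds were thus lower than DMSO, and the residual was -2.21 (-2.55 to -1.82). With a pseudocount of 5 the residual was -0.78. On the linear CPM scale the sum is below 0 and was set to 0, so no direction can be read from it. Cyr61 was at 97.0, 23.4, 9.08 and 10.1 CPM in the same order, above DMSO in the first 2, with a residual of 2.14 (1.86 to 2.42). Wisp2 was below at -2.10. Of 21 measured CCN and YAP target genes 4 were above and 3 below, with a median of 0.20.

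Thbs1, a secreted regulator of matrix and of TGF-beta activation, was at 341, 240, 187 and 455 CPM with 25-hydroxyvitamin D3, the SREBP inhibitor, the VDR activator and DMSO. Each compound stood under DMSO, and the residual was 1.78 (1.71 to 1.86), or 0.86 against the larger selective difference alone. The collagen genes Col3a1 and Col5a1 were below at -1.40 and -1.36, and the proteoglycan gene Dcn at -1.23, while Col4a1, at low levels, was above at 1.30. Summed on the linear scale the residual of Col3a1 was 0.88. Of 21 measured matrix and mesenchymal genes 2 were above and 3 below, with a median of 0.04. Among 21 TGF-beta targets 4 were above, Fst at 1.64, Smad7 at 1.63, Skil at 1.46 and Id3 at 1.04, and Snai2 was below at -1.20. Smad7 was at low levels, at most 3.04 CPM. Of 21 p53 targets, Plk2, Gadd45b and Plk3 were above, and Tp53inp1 (-2.10) and Cdkn1a were below.

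The genes of the third kind had a 25-hydroxyvitamin D3 difference of at least 2-fold on one side of DMSO and a sum of more than 0.5 on the other. The 5 above were Lif, Phlda1, Bnc2, Cdc42ep3 and Gadd45b. Bnc2, a zinc finger protein gene, was at 77.4 CPM with 25-hydroxyvitamin D3, 23.2 with the SREBP inhibitor, 18.6 with the VDR activator and 29.2 in DMSO. The 4 below were Plekhg4, Asap3, Tbc1d8 and Mt1. Asap3, a GTPase-activating protein gene of the ARF family, was at 10.7, 32.1, 50.5 and 25.4 CPM in the same order. Cdc42ep3 and Mt1 were named after their values were seen.

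Cd68, a lysosomal glycoprotein gene used as a macrophage marker, was above the sum at 1.89, with 14.6, 4.52, 4.95 and 6.82 CPM with 25-hydroxyvitamin D3, the SREBP inhibitor, the VDR activator and DMSO. Of 27 listed markers of other lineages 21 had a row, 5 had no counts in any library and 6 reached 1 CPM in a library. Their summed level was 18.3, 11.8, 13.2 and 16.3 CPM in that order. The leukocyte gene Ptprc and the macrophage gene Adgre1 had no counts in any library.

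Other large lists had few or no members past a limit, which 2.12% of all measured genes passed above and 4.33% below, so that counts near 0 are close to that share. None of the listed 32 proteasome subunits, 39 cytosolic ribosomal proteins or 24 cell division genes was past a limit. Their median residuals were 0.30, -0.14 and 0.27, although the cell division genes had a median 25-hydroxyvitamin D3 difference of 1.14. The lists do not hold every gene of a family. The ribosomal protein gene Rpl39 and the anaphase-promoting complex gene Anapc13, both unlisted, were below at -1.20 and -1.14. Of 34 ribosome biogenesis genes only Taf1d was past a limit, at 1.24, and of 28 DNA replication genes only the cyclin gene Ccne2, at -1.06. Of 19 widely expressed reference genes, the transferrin receptor gene Tfrc was below at -1.50.

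The remaining lists held 1 to 4 genes past a limit. Of 15 measured serine and one-carbon enzymes, only Mthfd2l, a mitochondrial folate enzyme gene, was above, at 66.5 CPM with 25-hydroxyvitamin D3 against 11.7, 14.6 and 10.3 CPM with the SREBP inhibitor, the VDR activator and DMSO. The 19 amino acid transporters had Slc7a11, Slc7a3 and Slc3a2 above and Slc43a2 below. Among 14 listed integrins and cadherins Pcdh18, Itga7 and Itgb5 were below, between -1.32 and -1.05. Of relatives not on the list, Pcdh15 was above at 1.29, and Pcdhgc5, Cdh9 and Cdh24 were below, between -1.40 and -1.07. Of 20 listed matrix proteases and inhibitors, the collagenase gene Mmp13 (1.70) and Mmp10 (1.69) were above, both at low levels. The inhibitor gene Timp2 was below at -1.11, and so was the unlisted Mmp28, at -1.75. The receptor gene Notch3 was the 1 of 14 listed hedgehog, Wnt and Notch targets past a limit, at -1.77. The chaperone gene Hspa8 was the 1 of 18 listed heat shock genes, at -1.44. The related Hspa2 and Dnajb13, not on that list, were below at -1.07 and -1.24. Mxd4, a MAX partner that represses, was below at -1.46, and so was Filip1l among 23 actin and SRF genes, also at -1.46. Of 25 hypoxia and glycolysis genes Pdk1 was above at 1.02, and of 27 lysosome and autophagy genes the alpha-galactosidase gene Gla at 1.43, with its SREBP inhibitor library the lowest of the 4.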

How the data were processed

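Poly(A) RNA of 4 CHO-K1 cultures was sequenced. The authors deposited 1 table of estimated counts and FPKM per gene. Version 1 of bcl2fastq and version 2 of TopHat2 are credited to the submitters' processing notes. For the counting tool, genome build, annotation and strandedness, the sources used here give nothing. Between 15.6 and 16.5% of rows per library held counts that were not whole, which were rounded. Rows that carry the same gene name were added up, leaving 20754 genes. RefSeq (CriGri-PICRH-1.0) was used only for names and gene order.

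CPM used TMM factors (0.955 to 1.03) from edgeR 4.0.16 in R 4.3.3, with a pseudocount of 1 CPM. Intervals combine exact Poisson limits of the 4 counts. No test was possible with 1 library per group. The residual's calculation was tested on simulated data. The genes and the 37 lists were chosen with earlier results of these data known. Lists hold chosen members and not whole families, so counts of members past a limit cover only the genes listed. Named genes were the 12 highest and 12 lowest residuals with a symbol and at least 10 CPM, up to 4 members of each list whose share past a limit was at least 2 times that of all genes, 4 known targets, those next to the limits and the 3 farthest of each kind. Other members of the lists are named to account for the counts. Alternatives were another scaling (DESeq2 1.42.0, total counts), FPKM, pseudocount, filter, limit and way of summing. A few named genes are not reported here.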

Additional observations from a re-analysis of the deposited data

How the results depend on the processing

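No paired analysis was possible because each group has 1 library, and no library could be left out. The counts above and below the sum stayed within 1.5 times of 258 and 528 with DESeq2 size factors, total counts, mitochondrial genes left out of the library sizes, both stricter filters and no filter, the linear sum, the larger selective difference, the rescaled sum and rows kept apart. Similar counts did not mean the same genes. With the larger selective difference, 202 of its 325 genes above were among the 258, and 481 of its 684 below among the 528. On the linear sum these were 247 of 347 and 416 of 429. FPKM gave 123 above and 490 below, with the median residual of all genes at -0.12, and held 116 of the 258 and 367 of the 528. A pseudocount of 0.1 gave 421 and 1080, and one of 5 gave 164 and 200. A limit of 2 gave 23 and 54, and one of 0.5 gave 1623 and 2133. Total counts gave 198 and 656, and DESeq2 size factors 270 and 488. On the linear sum the residual changed sign for Acss2 (4.09), Col3a1 (0.88), Ctgf (0.71) and Idi1 (0.32), and under rescaling for Acss2 (0.0124). For Acss2 and Ctgf the linear sum is below 0 CPM and was set to 0, which fixes the positive sign. For Col3a1 and Idi1 the log-scale sum gives 245 and 159 CPM, above their 25-hydroxyvitamin D3 levels of 92.1 and 60.8 CPM. Their linear sums lie below those levels, so the way of summing alone sets the sign. Of 99 named genes past a limit, 24 came inside it with a pseudocount of 5, 23 with FPKM and 23 under rescaling. The 13 mitochondrial-encoded mRNAs were below in every setting run with a limit of 1 or less that measured them, and COX1, at -1.90, was inside a limit of 2. Depth limits the genes near 1 CPM, about 20.4 counts with 25-hydroxyvitamin D3.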

Other observations

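Further gene groups were assembled after the values were seen, so their counts describe these libraries and support nothing. Of 17 measured circadian clock genes in the group, 6 were above the sum and 0 below, with a median residual of 0.59. Nr1d1 was the highest of them. Arntl2, related to the listed Arntl but left out of the group, was below at -1.55. Per1, a core repressor of the clock, was at 25.9 CPM with 25-hydroxyvitamin D3, 11.6 with the SREBP inhibitor, 15.6 with the VDR activator and 18.4 in DMSO. Both selective libraries were under DMSO, and the residual was 1.33. The others above were Npas2, Nfil3, Ciart and Per2, between 1.15 and 1.46. Npas2 was at 1.87, 0.0862, 0 and 0.0461 CPM in the same order, levels that rest on few counts. Of 12 measured genes of the interleukin-6 family and the PIM kinases, 4 were above, Lif, Pim1 (1.75), Clcf1 (1.64) and Pim3 (1.17). Clk1 and Clk4, kinases that act on splicing factors, were above at 1.44 and 1.41, and the related Dyrk1b was below at -1.11.

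Of 12 measured S100 proteins and galectins, 3 were below and 0 above, with a median of -0.82. S100a6, a calcium-binding protein gene, was at 104 CPM with 25-hydroxyvitamin D3, 754 with the SREBP inhibitor, 580 with the VDR activator and 821 in DMSO, and its residual was -2.34. Lgals1, which encodes galectin-1, was at 64.3, 456, 514 and 831 CPM in the same order, with a residual of -2.11. S100a13 was the other member below. Among 17 measured genes of the TNF ligands and receptors, Tnfsf9 (1.98), Tnfrsf12a (1.77) and Relt (1.26) were above and Tnfsf13 (-1.18) was below. Of 16 NF-kappaB factors and inhibitors only Nfkb2 was past a limit, at 1.57.

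In the RefSeq gene order 727 of the 786 genes could be placed among 11530 measured genes. They formed 61 of the 11518 adjacent pairs, of which 13 were both above, 37 both below and 11 on opposite sides. The number of pairs that genes placed at random would form was not worked out. Whether neighbours changed together was therefore not tested. Pairs above included Cxcl3 with Cxcl1 and Ptgs2 with Pla2g4a. Pairs below included the coupled transcription regulators Hexim1 and Hexim2, and Hoxa5 and Hoxa6. Opposite pairs included the glutathione synthetase gene Gss (1.67) with Acss2 (-1.04), and Icam1 (1.16) with Icam4 (-1.32).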
